A study of Mus musculus with 9 samples.

Results

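The expression of 10 target genes of the transcription factor p53 was followed in cultured mouse kidney cells, to ask whether the NF-kB inhibitor ACHP raised them above both the untreated and the TNF-treated level. The genes were Gdf15, Cdkn1a, Mdm2, Ccng1, Btg2, Phlda3, Sesn1, Zmat3, Trp53inp1 and Tnfrsf10b. They were chosen by name from the 57010 genes counted, and all 10 had enough reads to be tested. The cells were primary cultured renal cells, grown from enzyme-digested whole kidneys of wild-type mice and replated before treatment. The 3 groups received PBS, TNFα at 20 ng/mL, or TNFα at 20 ng/mL together with ACHP at 1 µM. ACHP inhibits the IKK kinases that release NF-kB. Each group was treated for 6 h and sequenced as 3 bulk RNA libraries. No group with ACHP alone was analysed here, so each ACHP comparison is of cells that also received TNF.

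p53 is held at a low level by MDM2, an E3 ubiquitin ligase that marks it for destruction. When DNA damage or other stress frees p53, it binds paired decamer sites near its targets and raises genes that stop the cell cycle, repair DNA or trigger cell death. Because Mdm2 is itself a target, the pathway limits its own activity. In the kidney tubule the p53 target p21 is known for restraining the cell cycle after injury.

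Of the 10 genes 1 was called higher in TNF with ACHP than in both other groups, where 0.692% of all genes tested were. It was Btg2, an antiproliferative cofactor, at 1.11-fold over TNF and 1.13-fold over PBS, and its call over TNF was lost in 4 of the 9 fits that left out 1 library. Gdf15, a secreted stress cytokine, fell with TNF and was 1.57-fold higher with ACHP than with TNF, but its level with ACHP was not called different from PBS. Mdm2 took the opposite course, 1.16-fold higher with TNF and lower again with ACHP. Cdkn1a, which encodes the cell cycle inhibitor p21, was called in no comparison.

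Values are CPM, the read counts of a gene divided by the library total and scaled between libraries by TMM factors. A gene was called at an adjusted p under 0.05 in edgeR's quasi-likelihood test, with Benjamini-Hochberg adjustment over the 14747 genes tested, and every adjusted p given here comes from that test unless another is named. Total counts were 14194295 to 20892176 per library. The labels do not say whether replicates came from separate animals, so the p-values measure only the spread between these libraries. Of the NF-kB targets listed, 7 of 7 were called higher with TNF and 7 of 7 lower with ACHP than with TNF. The shares of all genes called so were 3.31% and 4.46%. That list was chosen with earlier results of these data known, so its counts are no independent check on the labels. In bulk RNA, fewer cells of a type and less RNA per cell cannot be told apart. Markers of kidney cell types were present: those of the proximal tubule summed to 30.4 to 48.3 CPM per library and those of the collecting duct and distal tubule to 76.9 to 111 CPM, although in each list 1 defining gene, Slc22a6 and Aqp2, had no count. Summed macrophage markers were 41.0 to 46.2 CPM in the PBS and TNF libraries and 24.8 to 27.7 CPM with ACHP, and 7 of 10 were called lower in each ACHP comparison. Their median log2 fold change was -2.99 against TNF and -2.54 against PBS, a larger fall than that of the sum. Among all genes, 4.46% were called lower with ACHP against TNF and 3.87% against PBS. Summed neuron markers set libraries apart. They were 95.6 and 118 CPM in PBS replicates 3 and 2 and 49.9 to 81.9 CPM in the TNF libraries, against 19.5 to 21.5 CPM in PBS replicate 1 and the ACHP libraries. Of the 15 neuron markers, 10 were called lower with ACHP against TNF (median -2.82) and 11 against PBS (median -3.60). Against PBS the libraries did not overlap for 4 of them. The part of macrophage RNA in the results was not tested. For the neuronal RNA, a fit with a term for the 5 libraries high in neuron markers (the neural term) is given beside the calls it ended. All TNF libraries and no ACHP library are among those 5, so the term rests on PBS replicate 1 against PBS replicates 2 and 3. It cannot separate neuronal RNA from other differences between those libraries. Against PBS, the fit in effect compares ACHP with PBS replicate 1 and TNF with PBS replicates 2 and 3. The log2 difference of Btg2 between ACHP and PBS was 0.148 with the term and 0.149 with PBS replicate 1 alone. That of Gdf15 with TNF was -0.469 with the term and -0.471 without PBS replicate 1. Calls kept or lost with the term thus do not show the part of neuronal RNA.

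Levels differed widely among the 10 genes. Per length, in TPM (counts divided by gene length, then by their sum) over all 9 libraries, Ccng1 was highest, with a mean of 1081 TPM and a range of 1024 to 1116. Cdkn1a followed at 381 TPM (365 to 402) and Mdm2 at 296 TPM (268 to 327). Gdf15 averaged 253 TPM and had the widest range, 179 to 342, which overlapped those of Mdm2 above it and Btg2 below it. Btg2 averaged 167 TPM and Trp53inp1 159 TPM, again with overlapping ranges. Below them the ranges no longer overlapped: Phlda3 averaged 112 TPM, Tnfrsf10b 72.3 TPM, Zmat3 55.8 TPM and Sesn1 6.71 TPM. The highest and lowest of the 10 genes were thus the targets Ccng1 and Sesn1, in every library.

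**Figure D1:**
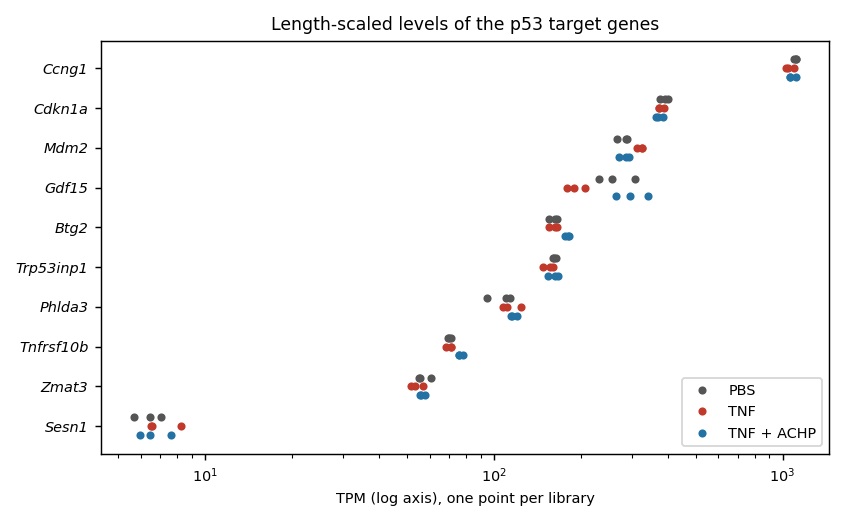
Levels of the 10 genes in TPM on a log axis, with the 9 libraries as points coloured by group and the genes in order of their mean. Ccng1 lies highest at 1024 to 1116 TPM, Sesn1 lowest at 5.68 to 8.23 TPM, and the points of Gdf15 are the most spread.

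Sequence before the start sites showed which of these genes carry a p53 decamer close by. RefSeq windows (GRCm38.p6, 250 bases before to 50 after a start site) were found for 7 of the 10 genes, 10 windows in all, and not for Zmat3, Trp53inp1 and Tnfrsf10b. The p53 decamer, a single copy of the 10-letter consensus unit searched on both strands, was present in the windows of 4 of these 7 genes, Cdkn1a, Mdm2, Ccng1 and Sesn1. Counted by window, it was present in 4 of these 10, against 8.36% of all 32851 windows. The NF-kB site and the ATF4-type composite TGATGNAA were in none of the 10 windows, against 4.51% and 3.97% of all windows. No match says only that these letters are not in the window. The 250 bases before the start are shown for the readout gene Cdkn1a and for the 3 genes that changed against TNF, with decamer matches in capitals. For Cdkn1a the upstream start is shown, 2790 bases from the other. Gdf15 also had another window, and its upstream start is shown. The 2 copies before Cdkn1a lie 73 to 64 and 51 to 42 bases ahead of the start, and the copy before Mdm2 186 to 177 bases ahead.
Cdkn1a, chr17:29090729-29090978 (+): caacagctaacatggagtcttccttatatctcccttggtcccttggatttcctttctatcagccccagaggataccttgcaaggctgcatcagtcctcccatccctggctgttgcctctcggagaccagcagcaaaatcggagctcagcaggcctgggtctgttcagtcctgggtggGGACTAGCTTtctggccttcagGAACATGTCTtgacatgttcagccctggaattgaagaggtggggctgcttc
Mdm2, chr10:117710759-117711008 (-): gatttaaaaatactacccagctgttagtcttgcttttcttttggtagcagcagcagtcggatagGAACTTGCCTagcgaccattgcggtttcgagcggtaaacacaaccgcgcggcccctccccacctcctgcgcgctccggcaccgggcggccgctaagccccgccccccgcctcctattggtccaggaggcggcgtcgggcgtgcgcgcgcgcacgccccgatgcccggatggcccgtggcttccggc
Btg2, chr1:134079156-134079405 (-): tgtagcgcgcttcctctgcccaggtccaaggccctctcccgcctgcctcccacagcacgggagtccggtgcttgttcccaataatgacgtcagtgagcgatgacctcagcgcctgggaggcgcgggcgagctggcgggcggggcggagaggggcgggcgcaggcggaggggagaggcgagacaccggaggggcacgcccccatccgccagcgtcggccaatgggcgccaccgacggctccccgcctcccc
Gdf15, chr8:70632457-70632706 (-): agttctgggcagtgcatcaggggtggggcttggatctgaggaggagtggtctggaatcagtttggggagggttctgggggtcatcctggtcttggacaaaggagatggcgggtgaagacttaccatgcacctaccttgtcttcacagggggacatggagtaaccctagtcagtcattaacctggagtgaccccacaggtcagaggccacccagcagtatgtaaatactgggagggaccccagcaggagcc

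GDF15 is a cytokine of the TGF-β superfamily that acts on the hindbrain receptor GFRAL to reduce appetite, and its gene is raised both by p53 and by the integrated stress response. Gdf15 (ENSMUSG00000038508, GRCm39 chromosome 8, 71082043 to 71085106, minus strand) measured 125, 113 and 150 CPM in the PBS libraries, 92.8, 89.5 and 102 CPM with TNF, and 132, 167 and 147 CPM with TNF and ACHP. All 3 TNF libraries lay below all 6 others, while the PBS and ACHP libraries overlapped. The group means were 129 ± 18.8, 94.9 ± 6.68 and 149 ± 17.6 CPM (SD, n = 3 each). TNF lowered Gdf15 by a log2 fold change of -0.45 (SE 0.087, edgeR adjusted p = 0.003), a fold of 0.734 with a 95% interval of 0.647 to 0.832. Summed markers of other cell types were lower in the same 3 libraries than in the PBS libraries: 30.4 to 34.8 against 44.4 to 48.3 CPM for the proximal tubule, 76.9 to 86.4 against 106 to 111 CPM for the collecting duct and distal tubule, and 185 to 197 against 232 to 248 CPM for fibroblasts. With ACHP these sums were 32.9 to 36.2, 85.4 to 93.1 and 176 to 181 CPM, and their part in the change of Gdf15 was not tested. With ACHP it was higher than with TNF by 0.65 on the log2 scale (SE 0.086, edgeR adjusted p = 5.6e-05), or 1.57-fold with an interval of 1.39 to 1.78. Against PBS the ACHP difference was 0.21 (SE 0.083, edgeR adjusted p = 0.17), with a fold interval of 1.02 to 1.30. That last comparison turned on PBS replicate 3, the highest PBS library, without which it was 0.33 (edgeR adjusted p = 0.0067). It was also called when no filter on low counts was used (0.21, edgeR adjusted p = 0.00016). With the neural term Gdf15 was still called lower with TNF (-0.47, edgeR adjusted p = 0.0018) and higher with ACHP than with TNF (0.72, edgeR adjusted p = 0.011). The receptor gene Gfral had 0 counts in all 9 libraries, and its signalling partner Ret had 14 to 23 counts per library and was not called.

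Cdkn1a encodes p21, which blocks cyclin-dependent kinases and holds cells in arrest. Cdkn1a (ENSMUSG00000023067, chromosome 17, 29309950 to 29319701, plus strand, 7.7% of its exon length shared with another gene) measured 374, 368 and 350 CPM in PBS, 366, 359 and 354 CPM with TNF, and 354, 343 and 366 CPM with TNF and ACHP. The 3 groups overlapped throughout. Its log2 fold change was -0.02 for TNF against PBS, -0.02 for ACHP against TNF and -0.04 for ACHP against PBS (SE 0.036 in each, edgeR adjusted p = 0.88, 0.79 and 0.64). The 95% intervals of the fold ran from 0.939 to 1.04, 0.934 to 1.04 and 0.924 to 1.03, so a rise of over 1.04-fold lay outside all of them.

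Mdm2 encodes the ubiquitin ligase that keeps p53 low. Mdm2 (ENSMUSG00000020184, chromosome 10, 117524780 to 117546663, minus strand) measured 385, 385 and 356 CPM in PBS, 440, 447 and 424 CPM with TNF, and 393, 394 and 368 CPM with TNF and ACHP. All 3 TNF libraries lay above all 6 others, and the PBS and ACHP libraries overlapped. Mdm2 rose with TNF by 0.22 on the log2 scale (SE 0.039, edgeR adjusted p = 0.0014), or 1.16-fold with an interval of 1.10 to 1.23. It was lower with ACHP than with TNF by a log2 fold change of -0.18 (SE 0.039, edgeR adjusted p = 0.006), a fold of 0.880 (0.832 to 0.932). Against PBS the ACHP difference was 0.04 (edgeR adjusted p = 0.7), with a fold interval of 0.969 to 1.09. The TNF rise was called with the neural term as well (0.24, edgeR adjusted p = 0.0012). The decrease with ACHP was not, at -0.24 with a larger SE (0.071) and an edgeR adjusted p of 0.13.

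Btg2 encodes a cofactor that restrains proliferation and takes part in mRNA deadenylation. Btg2 (ENSMUSG00000020423, chromosome 1, 134002908 to 134006858, minus strand) measured 119, 118 and 112 CPM in PBS, 118, 115 and 121 CPM with TNF, and 130, 132 and 133 CPM with TNF and ACHP. The 3 ACHP libraries lay above the 6 others, with group means of 116 ± 3.91, 118 ± 2.90 and 132 ± 1.52 CPM (SD, n = 3 each). TNF alone did not change it detectably (0.02, edgeR adjusted p = 0.82, fold interval 0.959 to 1.08). The 3 ACHP libraries were also the lowest in summed macrophage markers. With ACHP Btg2 rose by 0.16 over TNF (SE 0.040, edgeR adjusted p = 0.019) and by 0.18 over PBS (SE 0.039, edgeR adjusted p = 0.0083). The call over TNF depended on single libraries. Without TNF replicate 1, TNF replicate 2, ACHP replicate 2 or ACHP replicate 3, the edgeR adjusted p against TNF was 0.081, 0.11, 0.067 and 0.068. With the neural term the differences were 0.11 (edgeR adjusted p = 0.59) and 0.15 (0.32).

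Tnfrsf10b encodes the mouse TRAIL death receptor, which starts apoptosis from outside the cell. Tnfrsf10b (ENSMUSG00000022074, chromosome 14, 70004921 to 70021860, plus strand) measured 99.2, 103 and 99.7 CPM in PBS, 103, 105 and 99.8 CPM with TNF, and 111, 112 and 110 CPM with TNF and ACHP. As for Btg2, the 3 ACHP libraries lay above the 6 others, by a small margin. The rise over PBS was called, at 0.15 on the log2 scale (SE 0.039, edgeR adjusted p = 0.029, 1.11-fold, 1.05 to 1.17). The difference from TNF was 0.12 (SE 0.039, edgeR adjusted p = 0.071, 1.09-fold, 1.03 to 1.15). The rise over PBS was not called with the neural term (0.17, edgeR adjusted p = 0.25) or by DESeq2 (0.14, adjusted p = 0.059). It was also lost in 7 of the 9 fits without 1 library, all but those without TNF replicate 2 or TNF replicate 3, with an edgeR adjusted p of up to 0.093 (without PBS replicate 1).

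**Figure D2:**
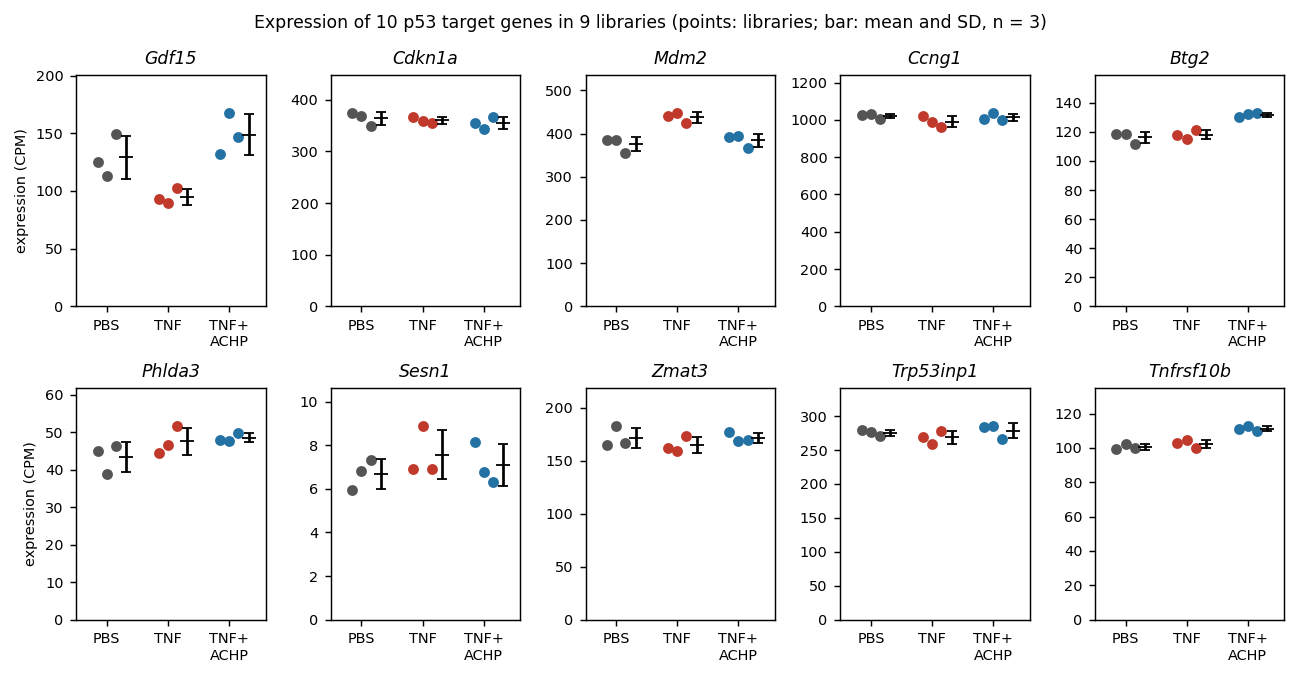
CPM of each of the 10 genes in the 9 libraries, 1 panel per gene, with points for libraries and a bar for the group mean with its SD. Gdf15 is lowest and Mdm2 highest in the 3 TNF libraries, Btg2 and Tnfrsf10b are highest in the 3 ACHP libraries, and Cdkn1a overlaps in all groups.

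The other 5 genes were called in no comparison. With Cdkn1a, the 6 uncalled genes gave 18 tests with edgeR adjusted p from 0.18 to 0.99, of which 1 had an unadjusted p under 0.05 (Phlda3, ACHP against PBS) and 0 were called by DESeq2. Ccng1, which encodes the atypical cyclin G1, ran from 961 to 1035.8 CPM over the 9 libraries, with fold intervals of 0.927 to 1.02 for TNF against PBS and 0.977 to 1.07 for ACHP against TNF. Phlda3, an inhibitor of AKT signalling, measured 45.0, 38.9 and 46.4 CPM in PBS, 44.5, 46.7 and 51.6 CPM with TNF, and 48.1, 47.7 and 49.9 CPM with TNF and ACHP. Its ACHP libraries lay above its PBS libraries, with a log2 difference of 0.16 (SE 0.066, edgeR adjusted p = 0.18) and a fold interval of 1.02 to 1.23. Zmat3, an RNA-binding splicing regulator, ranged from 159 to 182 CPM, and Trp53inp1, which acts in autophagy and cell death, from 259 to 285 CPM, with all 3 groups overlapping in both. Sesn1 encodes a sestrin, which restrains mTORC1, and had only 84 to 142 counts per library. Its intervals were the widest, reaching a fold of 1.37 for TNF against PBS.

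The calls among the 10 numbered 2 or 3 in each comparison. In TNF against PBS 2 were called, where 6.22% of all genes tested were, with 1 higher (Mdm2, against 3.31% of all genes) and 1 lower (Gdf15, against 2.91%). In TNF with ACHP against TNF 3 were called, where 7.17% of all genes were, with 2 higher (Gdf15 and Btg2, against 2.71%) and 1 lower (Mdm2, against 4.46%). In TNF with ACHP against PBS 2 were called, both higher (Btg2 and Tnfrsf10b), where 6.04% of all genes were called, 2.18% higher and 3.87% lower. Libraries of the groups did not overlap for 1 gene higher and 1 lower with TNF against PBS, where 12.3% and 11.5% of all genes did not. For ACHP against TNF they did not overlap for 3 higher (Gdf15, Btg2 and Tnfrsf10b) and 1 lower, against 12.4% and 13.3% of all genes. For ACHP against PBS they did not overlap for 3 higher (Btg2, Phlda3 and Tnfrsf10b) and 0 lower, against 10.7% and 9.94%. All 3 ACHP libraries lay above the 6 others for 2 of 10 (Btg2 and Tnfrsf10b), against 4.08% of all genes. Each group serves in 2 of the 3 comparisons, so 1 high or low library enters more than 1 of them. With 10 genes these shares are coarse, and they were not tested against those of all genes. The median log2 fold change of the 10 was 0.00 for TNF against PBS, 0.04 for ACHP against TNF and 0.06 for ACHP against PBS, where the median of all genes was 0.00 in each ACHP comparison. Among the members not called, the fold intervals reached at most 1.15 for ACHP against TNF (Tnfrsf10b) and 1.30 for ACHP against PBS (Gdf15).

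**Figure D3:**
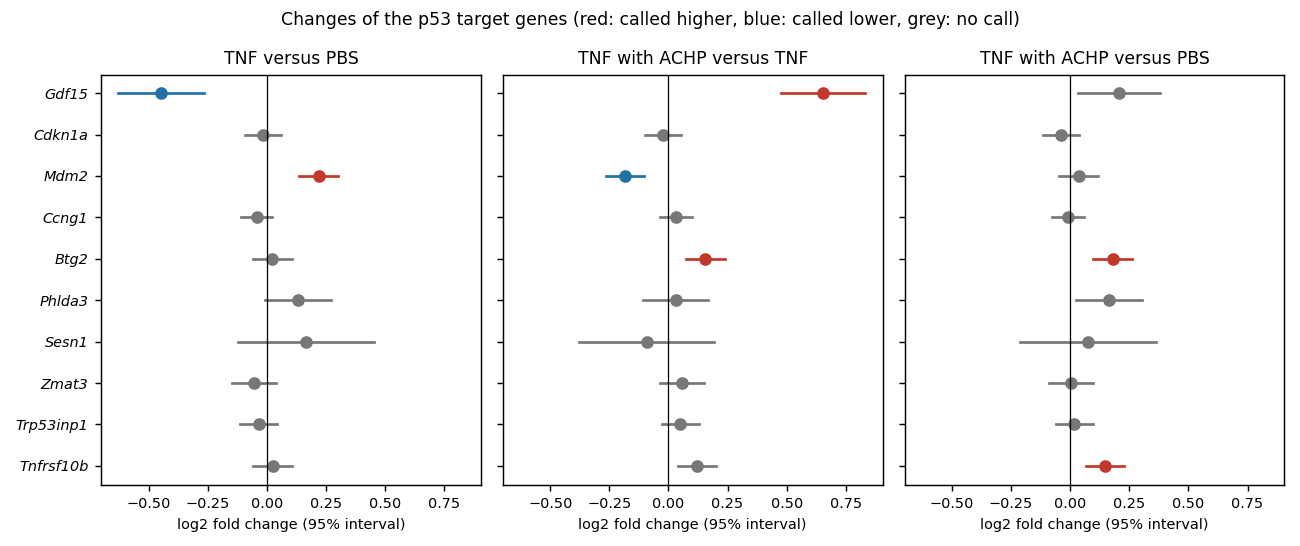
Log2 fold changes of the 10 genes in the 3 comparisons, with 95% intervals from the edgeR fit in red where called higher and blue where called lower. Gdf15 and Mdm2 move in opposite directions in the comparisons with TNF, and Cdkn1a lies at -0.02, -0.02 and -0.04.

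p53 itself and its regulators had few calls. Trp53 measured 172, 168 and 152 CPM in PBS, 185, 185 and 188 CPM with TNF, and 174, 177 and 192 CPM with TNF and ACHP. Its TNF libraries lay above its PBS libraries, a rise of 0.18 on the log2 scale (SE 0.046, edgeR adjusted p = 0.021). That call was lost without PBS replicate 3 or any TNF library (edgeR adjusted p up to 0.092). With ACHP it was not called against TNF (-0.04, edgeR adjusted p = 0.69) or PBS (0.14, edgeR adjusted p = 0.074). The level of p53 protein, through which the pathway is mainly controlled, was not measured. Mdm4, which encodes the partner of MDM2, was called in no comparison (0.06, -0.15 and -0.09, edgeR adjusted p = 0.63, 0.11 and 0.42). For p53 and its regulators 19 genes were tested. The only calls in the 3 comparisons were Trp53 with TNF and Daxx with ACHP against PBS. Daxx, which encodes a death domain-associated protein, differed by 0.23 (edgeR adjusted p = 0.031). The call of Daxx was lost without PBS replicate 2 or 3, TNF replicate 1, or ACHP replicate 2 or 3 (edgeR adjusted p up to 0.14), with the neural term (0.66) and by DESeq2. Of all genes 3.31% were called higher with TNF and 2.18% with ACHP against PBS. The medians of the list were 0.08, -0.07 and -0.01.

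The calls of the 49 other p53 targets tested, from 4 lists by role, were each a rise. With TNF 3 were called, with ACHP against TNF 5, and with ACHP against PBS 3. Of all genes 3.31%, 2.71% and 2.18% were called higher in these comparisons, and the counts were not tested against these shares. The first of these counts fell to 1 without PBS replicate 1 or 2 or TNF replicate 1 or 2. The second fell to 2 without TNF replicate 1, 0 without TNF replicate 2 and 3 without ACHP replicate 3, and to 0 with the neural term. Their median log2 fold changes were 0.02, 0.04 and 0.06. Only Pmaip1, which encodes the apoptosis activator NOXA, was called above both other groups. Pmaip1 measured 555, 574 and 605 CPM in PBS, 625, 623 and 632 CPM with TNF, and 697, 695 and 686 CPM with TNF and ACHP. Its 3 groups did not overlap, and each was higher than the last. The steps were 0.12 with TNF (edgeR adjusted p = 0.049) and 0.14 with ACHP over TNF (edgeR adjusted p = 0.012), and the whole difference from PBS was 0.26 (SE 0.034, edgeR adjusted p = 0.00011). With the neural term the TNF step was 0.09 (edgeR adjusted p = 0.19), the ACHP step 0.23 (edgeR adjusted p = 0.074) and the difference from PBS 0.32 (edgeR adjusted p = 0.0012). The TNF step was called in 1 of the 9 fits without 1 library, that without PBS replicate 3 (edgeR adjusted p up to 0.2), and the ACHP step was lost without TNF replicate 1 or 2 (up to 0.066). The difference from PBS was called in all 9.

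By role, 2 of 13 apoptosis targets were called higher with ACHP against TNF, Pmaip1 and the survival gene Bcl2l1 (0.18, edgeR adjusted p = 0.0062, or 0.055 without TNF replicate 2). Bax, Bbc3 and Perp, which promote cell death, were not called. Of 11 arrest targets the kinase gene Plk2 rose with TNF (0.21, edgeR adjusted p = 0.00035) and was above PBS with ACHP (0.15, edgeR adjusted p = 0.0071), and both calls were kept without each library. The first was also kept with the neural term (edgeR adjusted p = 0.0012), and the second was lost with it (0.19) and with PBS replicate 1 as the only PBS library. Of 10 DNA repair targets 1 was called with TNF, the replication clamp gene Pcna (0.19, edgeR adjusted p = 0.036), and lost without PBS replicate 1 or 2 or TNF replicate 1 or 2 (up to 0.18) and with the neural term (0.066). Of 15 metabolism and autophagy targets 3 were called higher with ACHP against TNF, including Sesn2 and the autophagy kinase gene Ulk1 (0.21, edgeR adjusted p = 0.021). With ACHP against PBS 1 was called, the mTORC1 inhibitor gene Ddit4 (0.17, edgeR adjusted p = 0.037). The shares of all genes called higher were 3.31% with TNF, 2.71% with ACHP against TNF and 2.18% with ACHP against PBS. Ulk1 was lost without TNF replicate 1 or 2 or ACHP replicate 2 or 3 (up to 0.095), and Ddit4 without PBS replicate 2, TNF replicate 1 or 2, or any ACHP library (up to 0.21) and with the neural term (0.51).

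Among 16 tested paralogs of the 10 genes, 3 were called higher with ACHP against TNF and 1 against PBS, with medians of 0.11 and 0.06. Of all genes 2.71% and 2.18% were called higher in these comparisons. The sestrin genes Sesn2 and Sesn3 rose over TNF by 0.25 (SE 0.062, edgeR adjusted p = 0.018) and 0.18 (edgeR adjusted p = 0.0077), where Sesn1 gave -0.09 (edgeR adjusted p = 0.77). Sesn1 had the fewest reads of them, and the differences between sestrins were not tested. The calls of Sesn2 and Sesn3 were also counted among the metabolism and autophagy targets, so these lists are not independent. Trp53inp2, which like Trp53inp1 acts in autophagy, was called above both groups, at 0.14 over TNF (edgeR adjusted p = 0.023) and 0.18 over PBS (edgeR adjusted p = 0.0053). The calls over TNF were lost without TNF replicate 2 for all 3 paralogs (edgeR adjusted p up to 0.11 for Sesn2, 0.067 for Sesn3 and 0.1 for Trp53inp2). Those of Sesn2 and Trp53inp2 were lost also without TNF replicate 1, TNF replicate 3 or ACHP replicate 3, and that of Trp53inp2 without ACHP replicate 2. With the neural term, all calls with ACHP against TNF named here for p53 targets outside the 10 and for paralogs were lost, as was the call of Trp53inp2 over PBS (edgeR adjusted p = 0.16).

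**Figure D4:**
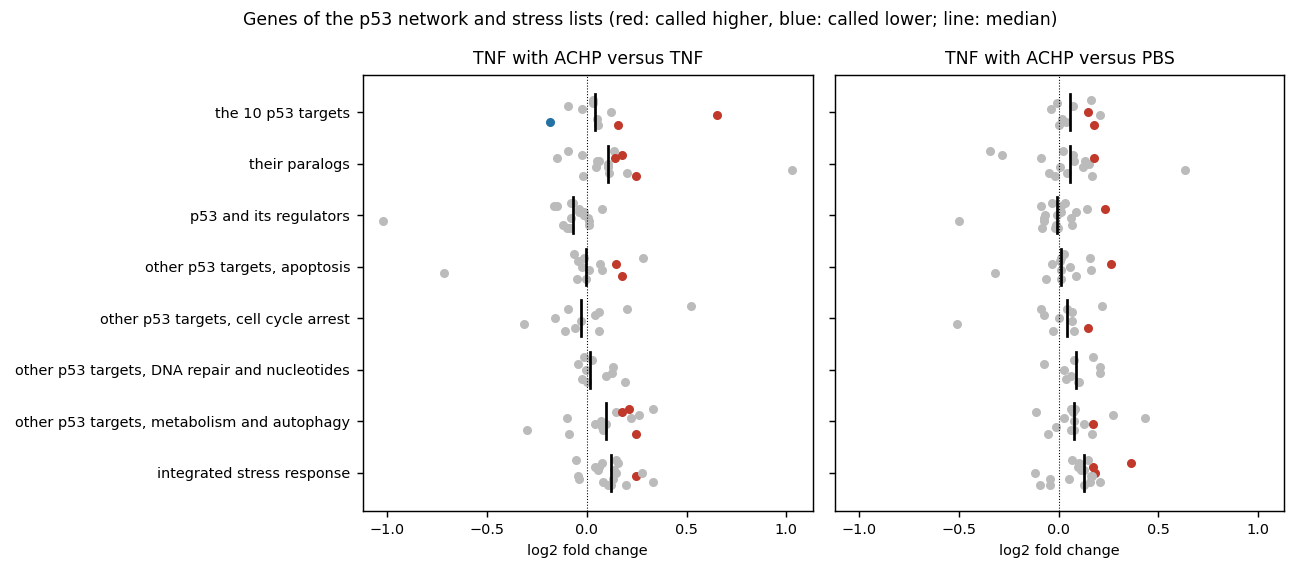
Log2 fold changes of the 10 genes, their paralogs and 6 other lists in the 2 ACHP comparisons, with a point per tested gene, red or blue where called, and the list's median as a line. The medians of the 10 genes lie at 0.04 against TNF and 0.06 against PBS, and that of the integrated stress response list at 0.12 and 0.13.

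Genes that p53 and p21 are known to lower, those of the cell cycle, were also listed. Of 24 tested, 14 were called with TNF, each higher, at a median log2 fold change of 0.21. Of all genes 3.31% were called higher with TNF. The mitotic kinesin gene Kif23 rose by 0.26 (edgeR adjusted p = 0.00086), the topoisomerase gene Top2a by 0.25 (edgeR adjusted p = 0.0012) and the proliferation marker Mki67 by 0.28 (edgeR adjusted p = 0.037). With ACHP against TNF 2 were called, Mki67 at -0.31 (edgeR adjusted p = 0.017) and the replication helicase gene Mcm6 at -0.15 (edgeR adjusted p = 0.022). The median was -0.08, and 4.46% of all genes were called lower. With ACHP against PBS 5 were called, each higher (median 0.12), where 2.18% of all genes were called higher. Aurkb (0.29, edgeR adjusted p = 0.026) was lost without any PBS or ACHP library (up to 0.1) and by DESeq2. Mcm5 (0.22, edgeR adjusted p = 0.026) was lost without PBS replicate 2 or ACHP replicate 2 or 3 (up to 0.17). Mcm3 (0.22, edgeR adjusted p = 0.0055) was kept without each library. With the neural term Aurkb, Mcm5 and Mcm3 were lost (edgeR adjusted p = 0.27, 0.43 and 0.26). The calls of Kif23 and Top2a were kept without each library. Those of Mki67 were lost without any TNF library, without PBS replicate 3 for the rise (edgeR adjusted p up to 0.16) and without ACHP replicate 2 or 3 for the fall (up to 0.1). That of Mcm6 was lost without TNF replicate 1 or 2 or ACHP replicate 2 (up to 0.11) and with the neural term (0.19). Both calls of Mki67 were kept with the neural term (0.003 and 0.019) and not made by DESeq2. Cdkn1a had no call in the same comparisons. The level of p21 protein was not measured, and a part of p21 in the changes of these genes was not tested.

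The integrated stress response, the other known input to Gdf15, was followed in 19 tested genes. With TNF 2 were called, both lower, Vldlr (-0.29, edgeR adjusted p = 0.0045) and Stc2 (-0.39, edgeR adjusted p = 0.046). With ACHP against TNF 1 was called, Sesn2, and the median was 0.12. With ACHP against PBS 3 were called, each higher, with a median of 0.13, among them Atf3 (0.36, edgeR adjusted p = 0.032) and the folate enzyme gene Mthfd2 (0.18, edgeR adjusted p = 0.024). The calls of Sesn2 against TNF and of Ddit4 against PBS were also counted among the metabolism and autophagy p53 targets. In 6 of the 19 (Asns, Atf3, Atf4, Mthfd2, Psat1 and Sesn2) all 3 ACHP libraries lay above the 6 others, against 4.08% of all genes. Of all genes 2.91% were called lower with TNF. With ACHP 2.71% were called higher against TNF and 2.18% against PBS. Atf4 itself was 0.11 over PBS (edgeR adjusted p = 0.072). The calls rested on single libraries. That of Vldlr was at 0.05 without TNF replicate 1, and that of Stc2 was kept only without PBS replicate 1 or ACHP replicate 2 (up to 0.18 otherwise). Atf3 was lost without PBS replicate 1 or 2 or any ACHP library (up to 0.13), Mthfd2 without PBS replicate 2 or 3 or ACHP replicate 2 or 3 (up to 0.12), and Sesn2 without any TNF library or ACHP replicate 3 (up to 0.11). Mthfd2 (edgeR adjusted p = 0.58) and Sesn2 (0.53) were lost with the neural term, and Stc2, Vldlr and Atf3 were kept (0.008, 0.0028 and 0.046). Stc2 and Atf3 were not called by DESeq2.

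Tnfrsf10b belongs to the TRAIL pathway, of which 10 genes were tested. With TNF 3 were called higher, among them Fadd (0.43, edgeR adjusted p = 0.037) and Bid (0.24, edgeR adjusted p = 0.0024), which encode the adaptor and the link to the mitochondrion. With ACHP against TNF 1 was called (Bid, -0.24, edgeR adjusted p = 0.0024). Of all genes 3.31% were called higher with TNF and 4.46% lower with ACHP against TNF. Both calls of Bid were kept without each library, and its fall was lost with the neural term (edgeR adjusted p = 0.33). That of Fadd was lost without PBS replicate 1 or 2 or TNF replicate 1 or 2 (edgeR adjusted p up to 0.27), with the neural term (0.068) and by DESeq2. The gene of the ligand TRAIL, Tnfsf10, had 1 to 12 counts per library and was not tested.

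The genes whose pattern over the 9 libraries was most like that of Gdf15 were, of 10174 compared, Ptprs, Lbh, Ctsd, Sdc4 and F2r, with Pearson r of 0.97 to 0.98 on log2(CPM + 0.5). Ptprs averaged 86.0 CPM in PBS, 76.2 CPM with TNF and 90.4 CPM with ACHP, and Ctsd, a lysosomal protease gene, 464, 407 and 490 CPM. Each of the 5 was lowest with TNF, as Gdf15 was. For Cdkn1a the closest included Ublcp1, Mrps30, Lyrm2 and Stk3 (r of 0.92 to 0.98), none of which varied much between groups. Ublcp1, for example, averaged 42.1, 42.0 and 40.4 CPM. These values share libraries and depth, and the 5 are the highest of many, so r is given as a description only.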

How the data were processed

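Bulk RNA of 9 libraries, 3 per group, was grouped by sample title. The deposited values are raw counts per Ensembl gene. Per the file headers, the authors counted reads with featureCounts 2.0.1, without changing its defaults, against Ensembl 109 (GRCm39). The same deposited table gives gene lengths, used here for TPM. The submitters' processing notes name STAR, DESeq2 and mm10, but the intervals follow GRCm39, so gene coordinates are on that build. Counting did not use strand. Symbols matched 52029 of 57010 identifiers.

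Software was edgeR 4.0.16 with limma 3.58.1 (R 4.3.3), and DESeq2 1.42.0 as an alternative. After filterByExpr 14747 genes remained. TMM factors were 0.993 to 1.01, and group means were estimated in 1 quasi-likelihood fit of the 9 libraries, whose coefficient of variation was 4.01%. The procedure was tested on simulated data. Chi-square per degree of freedom within groups was 1.81 to 6.00, so no library was a copy.

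The members and gene lists were chosen with earlier results of these data known. Named are all 10 members, Trp53, Mdm4, paralogs, up to 3 called genes per list and comparison with the largest change, and for Gdf15 and Cdkn1a the 5 genes of closest pattern among those averaging at least 5 CPM. Uncalled list genes, and counts of 6 or fewer by name, were named after their values were seen. Some genes that the naming rule selects are not reported here. Alternatives were DESeq2, RLE factors, total counts, no filter, a 1 CPM filter, the 6 libraries compared alone, a replicate block, an adjusted p under 0.01, the neural term, a neuron covariate, PBS replicate 1 as the only PBS library, and each library left out.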

Additional observations from a re-analysis of the deposited data

How the results depend on the processing

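Of the 7 calls of the 10 genes, 5 were kept without each library in turn, and 3 were kept with the neural term, namely both of Gdf15 and the rise of Mdm2. Correlations of deviations ran from -0.125 to 0.168 for same-numbered libraries and from -0.199 to 0.227 for other pairs between groups. They cannot settle whether replicate numbers mark pairs. The replicate block changed no call of the 10 genes, with 1 above both groups as before and 117 of all genes. Of the 31 calls of list genes and Trp53 tried, 9 were kept without each library and 12 with the neural term. The block ended 1 call of a named list gene, Pmaip1 with TNF at 0.12. A lone PBS library has no spread of its own, so that fit takes the spread of the TNF and ACHP groups. For ACHP against PBS, that fit and the neural term are not separate checks, since both in effect compare with PBS replicate 1. The cause of each change below was not tested, apart from the stricter threshold. Sesn1 had the fewest counts of the 10 genes, 84 to 142 per library, and the widest intervals.

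Members called higher with ACHP against PBS numbered 1 by DESeq2, 1 with only the 6 libraries compared, 1 at an adjusted p under 0.01, and 0 with the neural term, 0 with the neuron covariate and 0 with PBS replicate 1 alone. With ACHP against TNF 1 was higher at 0.01, 1 with the neural term and 1 with the covariate, and 0 were lower with either of the last settings. Members above both groups numbered 2 with no filter (Gdf15 and Btg2), and 0 at 0.01, with the neural term, with the covariate and with PBS replicate 1 alone. Leaving out 1 library gave 0 to 2 above both groups, 1 to 2 higher in each ACHP comparison, and 1 higher and 1 lower with TNF. Without PBS replicate 3 the 2 were Gdf15 and Btg2, and without TNF replicate 1 or 2 or ACHP replicate 2 or 3 there were 0.

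Other p53 targets called higher with TNF numbered 1 with total counts, 1 at 0.01 and 1 with the neural term. With ACHP against TNF they numbered 2 at 0.01, 0 with the neural term and 1 with the covariate. With ACHP against PBS they numbered 5 with no filter, and 1 with the neural term, the covariate or PBS replicate 1 alone. Leave-one-out ranges were 1 to 3, 0 to 7 and 2 to 4.

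All genes called with TNF against PBS numbered 442 at 0.01 and 418 with PBS replicate 1 alone, and 468 to 957 without 1 library, against 917. With ACHP against TNF they numbered 468 at 0.01, 143 with the neural term and 260 with the covariate, and 541 to 1327 without 1 library, against 1058. With ACHP against PBS they numbered 493 with only 6 libraries, 427 at 0.01, 162 with the neural term, 141 with the covariate and 237 with PBS replicate 1 alone, and 494 to 988 without 1 library, against 891. Genes above both groups numbered 64 with only 6 libraries, 32 at 0.01, 11 with the neural term, 14 with the covariate and 48 with PBS replicate 1 alone, and 43 to 145 without 1 library, against 102.

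Log2 fold changes that changed sign were all of uncalled values. With the neural term they were 0.0038 for Cdkn1a with TNF, -0.00032 for Mdm2 and -0.0055 for Trp53inp1 with ACHP against PBS, and -0.046 for Phlda3 and 0.16 for Sesn1 with ACHP against TNF. With the covariate they were -0.022 for Phlda3 and 0.14 for Sesn1 with ACHP against TNF, and -0.0098 for Trp53inp1 with ACHP against PBS. With PBS replicate 1 alone they were -0.0067 for Btg2 and 0.0020 for Zmat3 with TNF, and -0.0047 for Trp53inp1 with ACHP against PBS. Zmat3 with ACHP against PBS was -0.0015 by DESeq2, -0.0017 with RLE factors, -0.0077 with total counts, -0.0017 with the 1 CPM filter and -0.0043 with only 6 libraries. Without 1 library, Cdkn1a ran from -0.041 to 0.0018 and Btg2 from -0.0023 to 0.038 with TNF. Phlda3 ran from -0.020 to 0.092 and Sesn1 from -0.20 to 0.030 with ACHP against TNF. With ACHP against PBS, Ccng1 ran from -0.027 to 0.0013, Sesn1 from -0.037 to 0.15, Zmat3 from -0.028 to 0.049 and Trp53inp1 from -0.0032 to 0.049.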
